A study of Mus musculus with 9 samples.

Results

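The genes described here are those that carry a signal from the CD40 receptor to the NF-kB transcription factors. They are Cd40, the TRAF adaptor genes Traf2, Traf3 and Traf6, the kinase complex genes Ikbkb and Ikbkg, the inhibitor gene Nfkbia and the NF-kB subunit genes Nfkb1, Nfkb2 and Rela. They were chosen by name, and all 10 genes were found on the array, on 14 of its 39429 probes. A probe was tested if every array of any 1 genotype measured it well above background, which 13 of the 14 did, among 27993 probes with 21906 gene names in all. Those 13 passed this mark on each of the 9 arrays. Probe A_55_P1968738 of Nfkb1 was well above background on 0 of 9 arrays and was not tested.

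RNA came from the hippocampus of male C57BL/6J mice aged 9 months, with 3 IF1-KO, 3 CRL and 3 IF1-TG animals and 1 single-colour Agilent array for each animal. IF1, encoded by Atpif1, is the inhibitor protein of the mitochondrial ATP synthase. IF1-KO mice lack an exon of this gene where Camk2a-driven Cre is expressed, that is, chiefly in excitatory forebrain neurons. In IF1-TG mice human IF1 was placed under a tetracycline-responsive element, with a transactivator that also depends on the Camk2a promoter, so other cells of the hippocampus were not targeted in either model. CRL mice are labelled as control, and the labels give no alleles for them. The comparisons ask how the level of IF1 in these neurons goes with transcript levels in the whole hippocampus, where fewer cells of a type and less RNA per cell cannot be told apart.

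CD40 is a receptor of the tumour necrosis factor family, best known on B cells and also made by microglia and endothelial cells. When its ligand binds, TRAF adaptor proteins gather on its tail. TRAF2 and TRAF6 pass the signal to the IKK complex, in which the kinase encoded by Ikbkb and the scaffold encoded by Ikbkg mark the inhibitor IkBa, product of Nfkbia, for destruction, and this frees dimers such as p50 (Nfkb1) with RelA (Rela). TRAF3 holds back a slower branch, in which the product of Nfkb2 is cut to an active subunit. Nfkbia and Nfkb2 are themselves known target genes of NF-kB, so their transcripts are often read as a sign of its activity.

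Sequences are shown for the gene on which most of the results turn, Traf2, and for the known target genes. The first 30 bases of each Traf2 probe are given because its probes behaved differently, and the design file places them at chr2:25374386-25374445 and chr2:25373541-25373600 (mm9, minus strand), 785 bases apart. No mm9 annotation was used here, so exon or intron is not stated for them.
Traf2 probe A_55_P2092963: ggctgcacagccttgccaggtggcctgtat
Traf2 probe A_55_P2092958: ggattattgctctaggatttctccatagac

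Promoter sequences of 300 bases around the gene start came from RefSeq (GRCm38.p6), and 7 of the 10 genes had an entry, all but Cd40, Nfkb1 and Ikbkb. Those of Traf2 (chr2:25546891-25547190, minus strand), Nfkbia (chr12:55492598-55492897, minus strand) and the first of the 3 starts of Nfkb2 (chr19:46304487-46304786, plus strand) follow, with matches to the κB consensus motif, the DNA element that NF-kB binds, in capitals. Both strands were searched, and overlapping matches were joined.
Traf2 promoter: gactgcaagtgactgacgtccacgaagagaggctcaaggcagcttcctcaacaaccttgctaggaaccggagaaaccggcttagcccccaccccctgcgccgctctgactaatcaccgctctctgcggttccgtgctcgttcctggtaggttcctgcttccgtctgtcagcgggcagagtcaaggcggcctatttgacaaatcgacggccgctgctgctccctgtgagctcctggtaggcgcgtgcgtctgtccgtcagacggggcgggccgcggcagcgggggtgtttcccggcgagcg
Nfkbia promoter: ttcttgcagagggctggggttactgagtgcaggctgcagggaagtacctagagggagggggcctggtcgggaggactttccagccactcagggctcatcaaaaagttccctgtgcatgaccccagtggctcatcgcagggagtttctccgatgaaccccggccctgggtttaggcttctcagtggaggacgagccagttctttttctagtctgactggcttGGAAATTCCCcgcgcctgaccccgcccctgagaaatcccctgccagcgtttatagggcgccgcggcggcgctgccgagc
Nfkb2 promoter: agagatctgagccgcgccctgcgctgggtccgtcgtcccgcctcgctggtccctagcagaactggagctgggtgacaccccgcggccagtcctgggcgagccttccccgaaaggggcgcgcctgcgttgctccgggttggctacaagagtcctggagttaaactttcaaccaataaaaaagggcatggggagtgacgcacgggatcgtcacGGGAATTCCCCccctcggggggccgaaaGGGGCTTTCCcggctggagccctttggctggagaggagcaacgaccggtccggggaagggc

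The κB consensus motif was found in the promoters of 3 of the 7 genes, Nfkbia, Nfkb2 and Traf3. The Nfkbia match lay 29 to 20 bases before the gene start, and the Traf3 match lay 10 to 1 bases before it. In the first Nfkb2 promoter the matches spanned 39 to 29 and 11 to 2 bases before the start, and each of the other starts of Nfkb2 also held at least 1 match. The promoters of Traf2, Traf6, Rela and Ikbkg held no match in these 300 bases. By promoter, 5 of 12 entries of these genes held a match, against 4.51% of all 32851. Every start of Nfkb2 is among these 5. The entries of its later starts overlap and share a match, so that stretch was counted more than once. By gene, 5.14% of the 27025 genes with an entry held a match at 1 or more of their starts. Among the other pathway genes tested that had an entry, 13 of 45 did, or 28.9%, among them Tnfaip3, Tnip1 and Cyld, which encode brakes on the pathway. A match is a string of letters and was not tested for binding.

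Some facts about the arrays bear on what follows. The array labelled IF1-KO replicate 1 did not show lower Atpif1. Its log2 level, which throughout is set against the 75th percentile of that array's spots, was 6.44, against 5.20 and 5.53 on the other IF1-KO arrays, 6.32, 6.34 and 6.19 in CRL and 6.43, 6.39 and 6.51 in IF1-TG, where the transgene is the human gene. The slides did not hold the genotypes evenly. IF1-TG replicates 1 and 2 had slide 1 to themselves. IF1-TG replicate 3 was on slide 2 with CRL replicates 1 and 2 and the first IF1-KO array. CRL replicate 3 was on slide 3 with the remaining IF1-KO arrays. The IF1-TG arrays were also the dimmest, with 67.4% to 70.4% of spots well above background against 71.8% to 75.5% on the other arrays. The part of these facts in the results was not tested beyond the values given.

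Of the 13 probes, 1 passed both thresholds used for a call, a fold difference of at least 1.5 and an unadjusted P below 0.05 by limma, and it did so in 1 comparison. Traf2 was 1.65-fold higher in IF1-TG than in CRL hippocampus on probe A_55_P2092963. That was 1 of 13 probes in IF1-TG against CRL, where 4.47% of all probes tested passed both thresholds. In IF1-TG against IF1-KO 0 of 13 passed (3.80% of all probes), although 2 probes, both of Traf2, had an unadjusted P below 0.05 (7.15% of all probes). In IF1-KO against CRL 0 of 13 passed (1.07% of all probes), and 0 had an unadjusted P below 0.05 (2.56% of all probes). Only the called Traf2 probe had an unadjusted P below 0.05 in IF1-TG against CRL, where 8.46% of all probes did. No member probe had an adjusted P below 0.05, and over all probes 3, 1 and 0 did in these comparisons, taken as IF1-TG against IF1-KO, IF1-TG against CRL and IF1-KO against CRL.

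**Figure D1:**
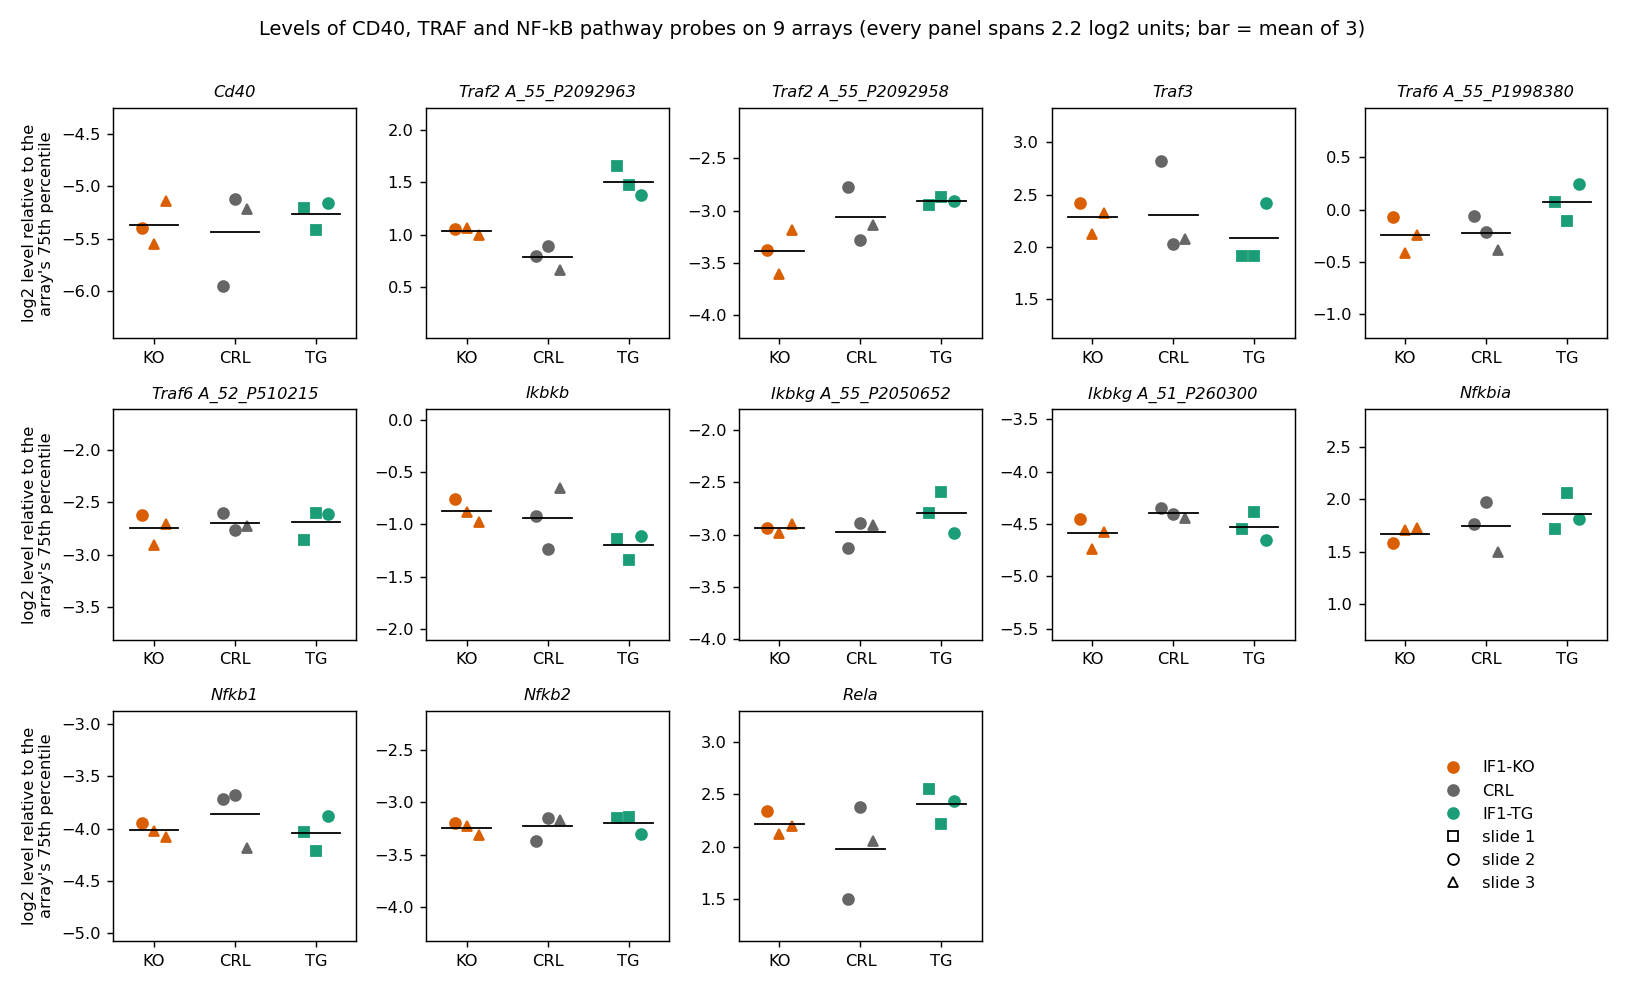
Log2 level of the 13 tested probes on each of the 9 arrays, after subtraction of that array's 75th percentile (vertical axis, 2.2 log2 units in every panel), by genotype (horizontal axis), with symbol shape for the slide and a bar at the mean of 3 arrays. The IF1-TG arrays of Traf2 probe A_55_P2092963 lie at 1.38 to 1.65, above all the other arrays, and CRL replicate 1 lies apart for Cd40, Traf3 and Rela.

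Cd40, the receptor, did not pass a threshold in any comparison. Its log2 levels were -5.40, -5.55 and -5.14 in IF1-KO, -5.96, -5.12 and -5.22 in CRL and -5.20, -5.42 and -5.16 in IF1-TG. The genotypes overlapped, and the lowest value belonged to CRL replicate 1. The differences were 0.17 (95% CI -0.34 to 0.69) for IF1-TG against CRL, 0.10 (-0.41 to 0.62) for IF1-TG against IF1-KO and 0.07 (-0.45 to 0.58) for IF1-KO against CRL on the log2 scale. Without CRL replicate 1 the IF1-TG against CRL difference was -0.09 and that of IF1-KO against CRL was -0.19. The gene for its ligand, Cd40lg, was well above background on 0 of 9 arrays.

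Traf2 encodes an adaptor that links the receptor to the IKK complex, and its probe A_55_P2092963 separated all the genotypes. Its log2 levels were 1.06, 1.06 and 1.00 in IF1-KO, 0.79, 0.89 and 0.66 in CRL and 1.65, 1.47 and 1.38 in IF1-TG. Every IF1-TG array was above every IF1-KO array, and every IF1-KO array was above every CRL array. IF1-TG exceeded CRL by 0.72 (SE 0.12, 95% CI 0.45 to 0.99, n = 3 against 3), with an unadjusted P of 0.000218 and an adjusted P of 0.303 by limma. Over all probes tested, 0.0572% had a smaller P in this comparison. IF1-TG exceeded IF1-KO by 0.46 (95% CI 0.20 to 0.73), with an unadjusted limma P of 0.00374 and an adjusted P of 0.661. IF1-KO exceeded CRL by 0.26 (95% CI -0.01 to 0.52), with an unadjusted limma P of 0.0591.

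The other Traf2 probe, A_55_P2092958, gave another order. Its log2 levels were -3.37, -3.61 and -3.18 in IF1-KO, -2.77, -3.28 and -3.13 in CRL and -2.94, -2.87 and -2.91 in IF1-TG. IF1-TG lay above IF1-KO without overlap, and CRL overlapped both. The difference of IF1-TG from IF1-KO was 0.48 (95% CI 0.11 to 0.85, unadjusted limma P 0.0174, adjusted P 0.661), close to that on the first probe. IF1-TG differed from CRL by 0.15 (95% CI -0.22 to 0.52), and IF1-KO from CRL by -0.33 (95% CI -0.70 to 0.04), opposite in sign to the first probe. These differences were 0.30 and -0.18 without CRL replicate 1, and 0.04 and -0.44 without CRL replicate 2. With the 2 probes averaged, IF1-TG exceeded CRL by 0.44 and no longer passed the fold threshold.

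The Traf2 difference between IF1-TG and CRL was smaller when slides were taken into account. Since IF1-TG replicates 1 and 2 were alone on slide 1, any value of an IF1-TG comparison with slide as a fixed block rests on 1 IF1-TG array, replicate 3. With slide as a fixed block it was 0.56 on probe A_55_P2092963, with an unadjusted limma P of 0.0106, just short of the 1.5-fold threshold. Within slide 2, the only slide with both genotypes, IF1-TG replicate 3 exceeded the mean of CRL replicates 1 and 2 by 0.54 and the array labelled IF1-KO replicate 1 by 0.33. Within slide 3 the mean of IF1-KO replicates 2 and 3 exceeded CRL replicate 3 by 0.37. Across the alternatives of processing and the arrays left out, the probe passed both thresholds in 17 of 19, with an adjusted P between 0.102 and 0.747. Dropping the first IF1-KO array, whose Atpif1 was not low, gave a difference of IF1-TG from IF1-KO of 0.47. With slide as a fixed block that difference was 0.27 on this probe and 0.44 on probe A_55_P2092958, both resting on IF1-TG replicate 3 alone.

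**Figure D2:**
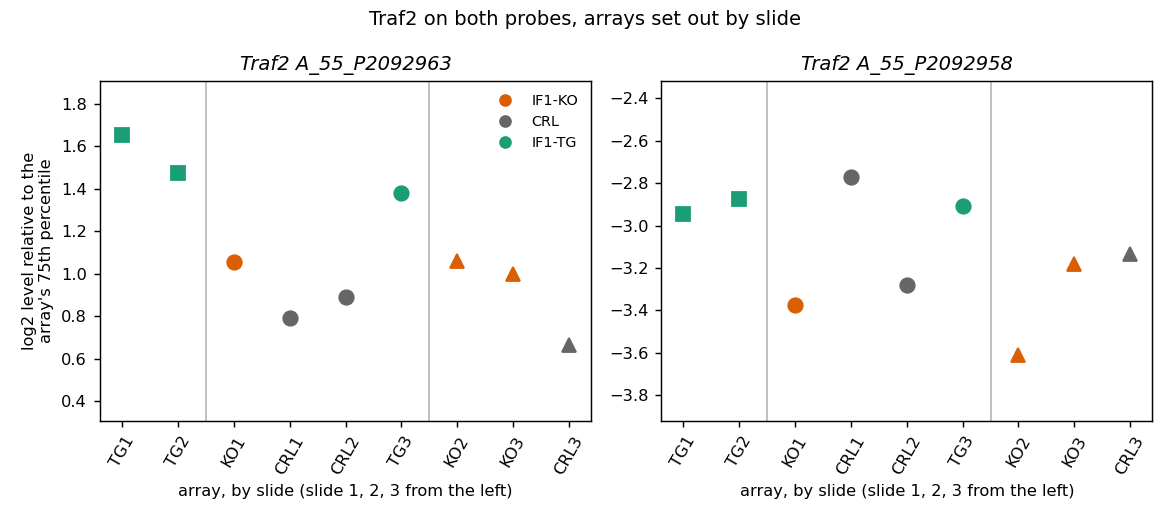
Log2 level of Traf2 on its 2 probes (vertical axis, after subtraction of each array's 75th percentile) for each of the 9 arrays, set out by slide from left to right (horizontal axis) and coloured by genotype. On probe A_55_P2092963 the IF1-TG array of slide 2, at 1.38, is above the IF1-KO and CRL arrays of slides 2 and 3, while on probe A_55_P2092958 CRL replicate 1, at -2.77, is the highest of all 9.

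Traf3 encodes the adaptor that restrains the slower NF-kB branch. Log2 levels of Traf3 were 2.42, 2.12 and 2.32 in IF1-KO, 2.82, 2.03 and 2.08 in CRL and 1.91, 1.91 and 2.42 in IF1-TG. The genotypes overlapped, CRL replicate 1 was the highest array, and both slide 1 arrays were the lowest. IF1-TG differed from CRL by -0.23 (95% CI -0.77 to 0.31), and within slide 2 by -0.01. The difference was -0.40 without IF1-TG replicate 3 and 0.03 without CRL replicate 1.

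Traf6 encodes the adaptor that CD40 shares with the interleukin 1 and Toll-like receptors. On probe A_55_P1998380 (chr2:101519206-101519265, mm9, plus strand) its log2 levels were -0.07, -0.41 and -0.24 in IF1-KO, -0.06, -0.21 and -0.39 in CRL and 0.07, -0.11 and 0.25 in IF1-TG. The IF1-TG arrays tended to lie high but overlapped both other genotypes. The differences were 0.29 from CRL (95% CI -0.05 to 0.63) and 0.31 from IF1-KO (95% CI -0.03 to 0.65), and the within-slide 2 values were 0.38 and 0.31. On probe A_52_P510215 (chr2:101540660-101540719, mm9, plus strand) the same differences were 0.01 (95% CI -0.28 to 0.30) and 0.06 (95% CI -0.24 to 0.35). The intervals of both probes overlapped, and the difference between the probes was not tested.

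Ikbkb encodes the catalytic kinase of the IKK complex that acts on IkBa. The log2 levels of Ikbkb were -0.76, -0.88 and -0.98 in IF1-KO, -0.92, -1.24 and -0.65 in CRL and -1.14, -1.34 and -1.11 in IF1-TG. All 3 IF1-TG arrays were below all 3 IF1-KO arrays, while CRL spanned most of the range. The difference of IF1-TG from IF1-KO was -0.32 (95% CI -0.69 to 0.05, unadjusted limma P 0.0789), and it was -0.15 with slide as a fixed block. Together with the Traf2 probes this made 3 of 13 probes without overlap between IF1-TG and IF1-KO, where 13.6% of all probes tested did not overlap.

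Ikbkg encodes the regulatory subunit that joins the IKK complex to upstream adaptors. Its probes lie at chrX:71694027-71694086 and chrX:71694102-71694161 (mm9, plus strand). Probe A_51_P260300 gave log2 levels of -4.46, -4.74 and -4.58 in IF1-KO, -4.34, -4.40 and -4.44 in CRL and -4.55, -4.39 and -4.65 in IF1-TG. IF1-KO lay below CRL without overlap, by -0.20 (95% CI -0.47 to 0.08, unadjusted limma P 0.144). Probe A_55_P2050652, the first of these positions, gave 0.04 for the same comparison (95% CI -0.27 to 0.34). In IF1-KO against CRL 2 of 13 probes did not overlap, this one of Ikbkg and the first of Traf2, against 7.90% of all probes. In IF1-TG against CRL 1 of 13 did not, against 12.1% of all probes.

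Nfkbia encodes the inhibitor that NF-kB itself switches on. For Nfkbia the log2 levels were 1.59, 1.70 and 1.72 in IF1-KO, 1.76, 1.97 and 1.5 in CRL and 1.71, 2.06 and 1.81 in IF1-TG. The genotypes overlapped. The differences were 0.12 for IF1-TG against CRL (95% CI -0.23 to 0.47), 0.19 for IF1-TG against IF1-KO (95% CI -0.16 to 0.54) and -0.07 for IF1-KO against CRL (95% CI -0.42 to 0.28).

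Rela encodes the subunit with the main activating domain of the classical NF-kB dimer. Rela had log2 levels of 2.34, 2.12 and 2.19 in IF1-KO, 1.5, 2.37 and 2.05 in CRL and 2.55, 2.22 and 2.44 in IF1-TG. CRL held both the lowest array, replicate 1, and 1 of the higher ones. The difference of IF1-TG from CRL was 0.43 (95% CI -0.06 to 0.92, unadjusted limma P 0.0793). It rested on which CRL arrays were used, since it was 0.19 without CRL replicate 1 and 0.63 without CRL replicate 2, when it passed both thresholds.

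The other subunit genes, Nfkb1 and Nfkb2, passed no threshold in any comparison. Nfkb1 on probe A_55_P1968743 had log2 levels of -3.95, -4.02 and -4.08 in IF1-KO, -3.71, -3.68 and -4.19 in CRL and -4.03, -4.21 and -3.88 in IF1-TG. Nfkb2 had log2 levels of -3.20, -3.23 and -3.31 in IF1-KO, -3.37, -3.15 and -3.17 in CRL and -3.15, -3.14 and -3.30 in IF1-TG. All genotypes overlapped for both. For Nfkb2 the 95% CI of the log2 difference ran from -0.22 to 0.29 for IF1-TG against CRL, from -0.21 to 0.31 for IF1-TG against IF1-KO and from -0.27 to 0.24 for IF1-KO against CRL, so a 1.5-fold difference lay outside each of them.

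**Figure D3:**
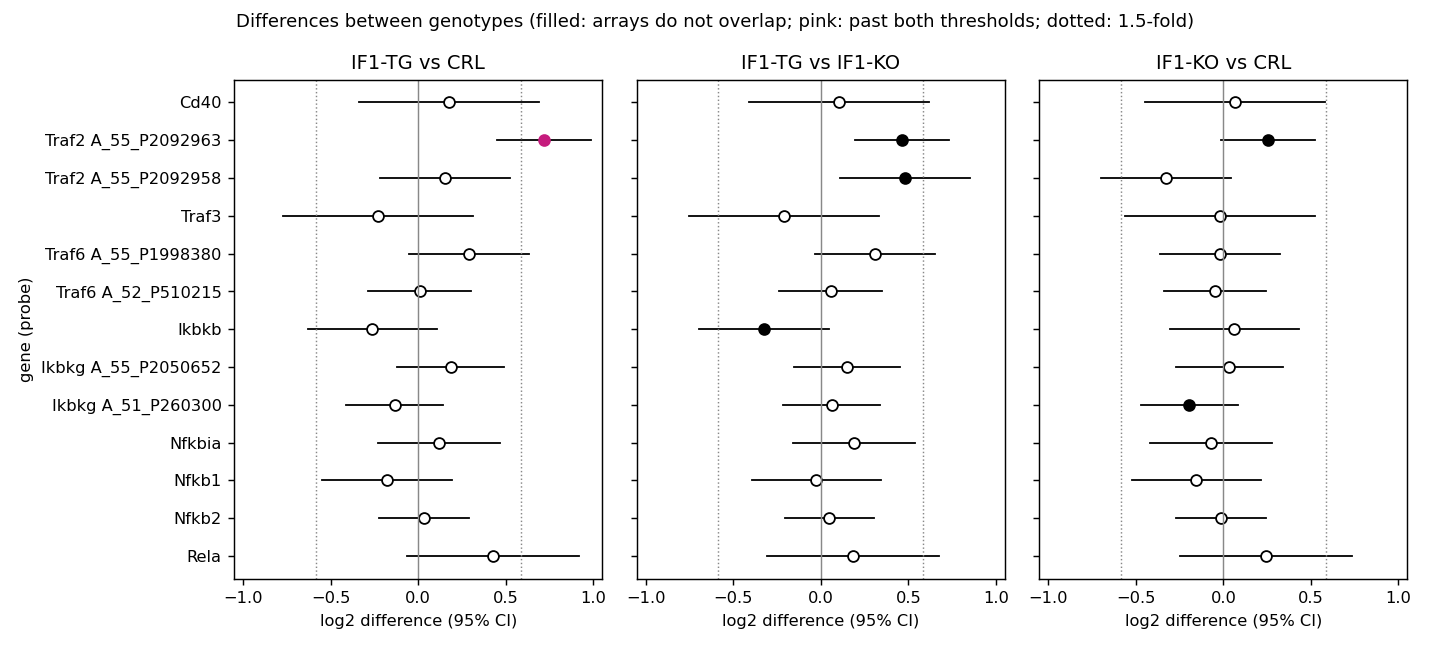
Log2 differences between genotypes (horizontal axis) with 95% confidence intervals for the 13 probes (vertical axis) in 3 comparisons of 3 arrays each. Filled points mark probes whose arrays do not overlap between the genotypes, the pink point is past both thresholds, and dotted lines mark 1.5-fold; the largest difference is that of Traf2 in IF1-TG against CRL, at 0.72.

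As a group, and on the brightest kept probe of each gene, 7 of 10 genes lay above 0 in IF1-TG against CRL, where 49.9% of all 21906 genes did. Their median was 0.15, and that of all genes was -0.0006. In IF1-TG against IF1-KO 7 of 10 lay above 0 (52.4% of all genes) with a median of 0.13, and the median of all genes was 0.01. In IF1-KO against CRL 5 of 10 lay above 0 (46.8% of all genes) with a median of 0.01, and the median of all genes was -0.01. With slide as a fixed block the medians of the 10 genes in the IF1-TG comparisons were both 0.02, below the 0.04 of all probes against CRL and the 0.03 against IF1-KO. The median of 0.15 also moved when 1 array was left out, to 0.05 without IF1-TG replicate 2, 0.07 without CRL replicate 1 and 0.23 without CRL replicate 2, and that of 0.13 moved to 0.08 without IF1-TG replicate 2. With all kept probes of a gene averaged, the medians were 0.08 in IF1-TG against CRL, 0.11 in IF1-TG against IF1-KO and -0.03 in IF1-KO against CRL. These comparisons share arrays and are not independent of each other.

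Across the 9 arrays, some of the genes, each on its brightest kept probe, varied together, within genotypes as well as across them. Among the 45 pairs of genes, Nfkbia and Ikbkb had a Pearson r of -0.93 and a Spearman rho of -0.88, with exact permutation (two-sided) P values of 0.000287 and 0.00308 and adjusted values of 0.0129 and 0.0461. Arrays with more transcript of the inhibitor had less of the kinase that removes it, from CRL replicate 3 at 1.5 and -0.65 to IF1-TG replicate 2 at 2.06 and -1.34. The r was -0.95 for deviations from the genotype means and -0.93 for deviations from the slide means. It was -0.87 without the 2 arrays farthest from the median of Nfkbia, which were CRL replicate 2 and IF1-TG replicate 2.

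Traf3 and Nfkb2, the adaptor and the subunit gene of the slower branch, had a Pearson r of -0.89 and a Spearman rho of -0.88, with exact permutation P values of 0.00178 and 0.00308 and adjusted values of 0.0401 and 0.0461. The r was -0.96 without the 2 arrays farthest from the median of Traf3, and -0.89 for deviations from either the genotype or the slide means. Nfkb2 spanned only -3.37 to -3.14 over the arrays. Traf3 and Ikbkg had an r of -0.79 and a rho of -0.88, with adjusted exact permutation values of 0.158 and 0.0461. Ikbkg was taken on probe A_55_P2050652 alone, and its other probe was not set against Traf3. Cd40 and Rela had an r of 0.83 and a rho of 0.60, with adjusted exact permutation values of 0.158 and 0.543, and without the 2 farthest arrays the r was 0.18, so that relation rested on CRL replicate 1 and IF1-KO replicate 2. Single slides held too few arrays for a correlation of their own. All values come from the same 9 hybridisations and share their scaling. The permutation treated the 9 arrays as exchangeable, although they fall in genotypes and in unevenly filled slides, so its P values may be too small.

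By likeness of level over the 9 arrays, among 14896 genes well above background on all of them, the genes nearest to Cd40 were Pgap2 (r = 0.97, rho = 0.88), 1700028P14Rik (r = 0.94, rho = 0.78) and Ccdc32 (r = 0.92, rho = 0.85). Those nearest to Nfkbia were Mirg (r = 0.93, rho = 0.90), Irx3 (r = 0.89, rho = 0.82) and Cyp4f39 (r = 0.89, rho = 0.93). None of these is a gene of the pathway list. With 14896 genes compared over 9 arrays these values are a description.

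The wider pathway was read from 66 other genes in lists of receptors and ligands, adaptors, kinases, subunits, inhibitors, the JNK and p38 branch, NF-kB target genes and the IKK-associated gene Ikbkap, of which 59 were tested. In IF1-TG against CRL 1 rose and 2 fell past both thresholds. Of those that fell, Tnf was well above background in CRL only and entered the test through that genotype, so it is not read as a fall. In IF1-TG against IF1-KO 1 rose and 1 fell, and in IF1-KO against CRL 0 of 59 passed. Over all genes on their brightest probe 4.31%, 3.71% and 1.02% passed in these comparisons. The medians of the 59 genes were -0.01, -0.01 and -0.03. None of the 59 had an adjusted P below 0.05, and the smallest adjusted limma P apart from that of Tnf was 0.565.

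The gene that rose in both comparisons was Ccl5, an NF-kB target gene that encodes a chemokine. Ccl5 had log2 levels of -2.72, -3.85 and -3.43 in IF1-KO, -3.71, -3.06 and -3.34 in CRL and -2.39, -2.67 and -2.86 in IF1-TG. IF1-TG lay above all CRL arrays, by 0.73 (SE 0.29, unadjusted limma P 0.0353, adjusted P 0.565). It exceeded IF1-KO by 0.69 (unadjusted limma P 0.0428, adjusted P 0.699), with overlap through the array labelled IF1-KO replicate 1. Leaving that array out gave a difference of 1.00, and leaving out IF1-KO replicate 2 gave 0.44, which is below the fold threshold. Against CRL the difference ranged from 0.56 without CRL replicate 1 to 0.89 without CRL replicate 2. With slide as a fixed block the differences were 0.36 and 0.18. They passed both thresholds in 13 and 9 of 19 alternatives.

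Map3k8 encodes a kinase that links NF-kB1 p105 to MAP kinase signaling. For Map3k8 the log2 levels were -4.68, -3.99 and -3.92 in IF1-KO, -4.56, -4.45 and -4.03 in CRL and -5.79, -5.03 and -4.55 in IF1-TG. The arrays overlapped, and the low ones were the IF1-TG arrays of slide 1. Map3k8 fell by 0.92 in IF1-TG against IF1-KO (unadjusted limma P 0.0224, adjusted P 0.664) and fell by 0.78 against CRL (unadjusted limma P 0.0454, adjusted P 0.583). With slide as a fixed block the values were 0.05 and -0.0018, both resting on IF1-TG replicate 3 alone. Without IF1-TG replicate 1 they were -0.59 and -0.44, and neither passed the P threshold. They passed both thresholds in 14 and 7 of 19 alternatives. On slide 2 IF1-TG replicate 3 stood at -4.55, between CRL replicates 1 and 2.

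Tnf, which encodes the inflammatory cytokine, was the other gene counted as lower in IF1-TG than in CRL. Its log2 levels were -7.71, -7.00 and -7.24 in IF1-KO, -7.31, -7.31 and -6.63 in CRL and -7.78, -8.10 and -7.49 in IF1-TG. It was well above background on 3 of 3 CRL arrays and on 0 of 3 in each other genotype, so it entered the test only through the genotype in which it was high. Its mean CRL level of -7.08 was below the mean of the lowest signals called well above background on the IF1-TG arrays, so its difference has only a bound, which gives no fold, and the count of genes that fell supports nothing about Tnf.

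**Figure D4:**
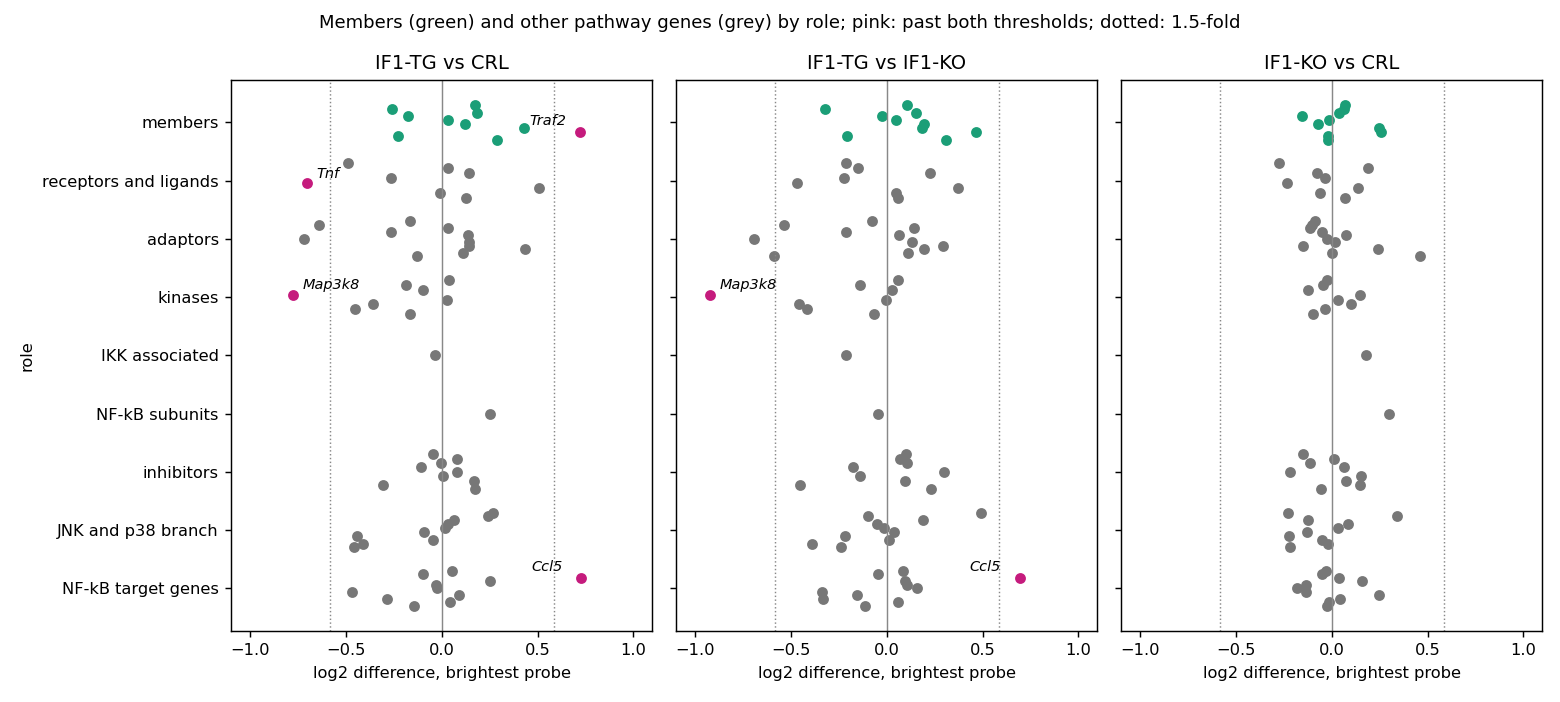
Log2 difference (horizontal axis, brightest kept probe) of the 10 members (green) and of 59 other pathway genes (grey) by role (vertical axis) in the 3 comparisons. Named pink points are past both thresholds, which are Traf2, Ccl5, Tnf and Map3k8 in IF1-TG against CRL, Ccl5 and Map3k8 in IF1-TG against IF1-KO and no gene in IF1-KO against CRL. Of these, Tnf was well above background in CRL only and entered the test through that genotype.

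By role, the inhibitors held 9 genes tested, with 5 above 0 in IF1-TG against CRL and none past both thresholds. Tnfaip3, which encodes the deubiquitinating brake A20, was at -2.95, -2.72 and -2.36 in IF1-TG and at -2.26, -2.12 and -2.28 in IF1-KO, a difference of -0.45 (unadjusted limma P 0.0322, adjusted P 0.682) that missed the fold threshold. Its partner Tnip1 was at 2.21, 2.05 and 2.23 in IF1-TG and at 1.91, 1.98 and 1.91 in IF1-KO. Myd88, the adaptor of Toll-like receptors, was at -1.59, -1.53 and -1.56 in IF1-TG and at -1.34, -1.18 and -1.37 in CRL, a difference of -0.27 (unadjusted limma P 0.0403) that also missed it. Map3k5, a kinase of the JNK and p38 branch, was at -1.65, -0.86 and -1.03 in IF1-TG and at -0.56, -0.72 and -0.93 in CRL, with overlap.

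In IF1-KO against CRL the lowest P values outside the 10 genes belonged to Nos2, Relb, Map2k3, Traf5 and Ikbkap. Relb, the partner of the processed Nfkb2 product, was at 0.14, 0.03 and -0.02 in IF1-KO and at -0.18, -0.51 and -0.07 in CRL, without overlap (difference 0.30, unadjusted limma P 0.068). Nos2, the inducible nitric oxide synthase gene, was at -3.53, -3.57 and -3.62 against -3.93, -3.77 and -3.75 (difference 0.25, unadjusted limma P 0.0597). Neither reached 1.5-fold. Map2k3 and Traf5 differed by 0.34 and 0.46, with overlap. Ikbkap differed by 0.18 and Map2k4 by -0.12 in IF1-KO against CRL, by -0.04 and 0.06 in IF1-TG against CRL, and by -0.21 and 0.19 in IF1-TG against IF1-KO. Traf5, another TRAF adaptor gene, was at -2.59, -2.58 and -3.41 in IF1-TG and at -2.55, -1.75 and -2.50 in IF1-KO, a difference of -0.59 without overlap (unadjusted limma P 0.0727, adjusted P 0.712) that passed both thresholds in 3 of 19 alternatives.

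Several genes of the pathway were at the limit of detection in whole hippocampus. Besides Cd40lg, Rel, which encodes a subunit made mainly in lymphoid cells, and Icam1 were well above background on 0 of 9 arrays, Il6 and Cxcl1 on 1, Ikbke on 3 and Irak4 on 4 of 9. The defining B cell markers Ms4a1 and Pax5 were well above background on 0 of 9 arrays.

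Of the 13 microglia markers 12 were measured on every array, since Cx3cr1 had no usable spot on the array labelled IF1-KO replicate 1. The log2 of the summed linear levels of these 12, to which the brightest markers add most, was 5.91 to 6.18 in IF1-KO, 6.14 to 6.30 in CRL and 6.22 to 6.42 in IF1-TG, so IF1-TG lay above IF1-KO without overlap by this sum. By the median of the 12 log2 levels they overlapped, at 1.40 to 1.51 in IF1-KO and 1.49 to 1.57 in IF1-TG. Aif1, the defining marker, was at 0.89, 0.65 and 0.63 in IF1-KO, 0.41, 0.65 and 0.73 in CRL and 0.90, 0.79 and 1.00 in IF1-TG. On the same scale, the log2 of the summed levels, astrocyte markers (7 of 7 measured) came to 5.32 to 5.51 in IF1-KO, 5.48 to 5.70 in CRL and 5.47 to 5.66 in IF1-TG. Endothelial markers (7 of 7) came to 3.79 to 3.87, 3.70 to 4.07 and 3.60 to 3.89, and oligodendrocyte markers (6 of 6) to 6.35 to 6.89, 6.77 to 7.13 and 6.87 to 7.22, in the same order. Choroid plexus markers (5 of 5) varied most within genotypes, from 1.03 to 6.58, 1.58 to 6.89 and 2.28 to 7.49, and blood markers (4 of 4) ranged from 4.03 to 5.17, 2.91 to 7.27 and 3.72 to 4.91. Markers of excitatory neurons and hippocampus (8 of 8) came to 6.60 to 6.80, 6.56 to 6.90 and 6.75 to 6.92. The part of these cell types in the differences above was not tested.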

How the data were processed

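The data are 9 single-colour Agilent scanner files, 1 per mouse, deposited by the authors. Per the file headers, Agilent Feature Extraction 10.7.3.1 gave for each spot a processed intensity, background-subtracted on a linear scale, with mean and background intensity and marks for outliers and for spots well above background. Deposited probe positions are in mm9. Control and outlier spots were left out. The log2 of the processed intensity minus the 75th percentile of the array was fitted with limma 3.58.1 (R 4.3.3) over all 9 arrays without covariates, on probes that every array of any 1 genotype measured well above background. Samples were grouped by the genotype in the labels. P-values rest on the spread between arrays, in which differences between animals, slides and hybridisations are mixed. The study's thresholds, 1.5-fold and an unadjusted P below 0.05, were used, with Benjamini-Hochberg adjustment over all 27993 probes. Precision is limited by the 3 arrays per genotype. A gene's brightest kept probe stands for it in lists. Slides were read from the bar code in the files.

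The members and lists were chosen with earlier results of these data known. Named genes are the 10 members, pathway genes past both thresholds, the 5 with the smallest P in each comparison, Ikbkap and Map2k4, Atpif1, Aif1, and the 3 genes most like Cd40 and Nfkbia. Correlations used the brightest kept probe of each gene and exact permutation of the 9 arrays (Python 3.11.15, NumPy 2.4.6). The fit was tested on simulated data. Alternatives were quantile normalization, with or without normexp (offset 50), keeping all dim probes or only those well above background on 9 arrays, a block for slide (fixed, then random), a block for replicate number, 2 genotypes only, trended robust eBayes, the mean of a gene's probes, and each array left out.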

Additional observations from a re-analysis of the deposited data

How the results depend on the processing

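Over 19 alternatives, the member probes kept their side of the thresholds in all 247 values of IF1-TG against IF1-KO, in all 247 of IF1-KO against CRL and in 244 of 247 of IF1-TG against CRL, and uncalled differences changed sign in 8, 23 and 13 of them. The smallest adjusted limma P of any of these values was 0.102. The count of member probes called in IF1-TG against CRL went from 1 to 0 with slide as a fixed block and to 0 with a gene's probes averaged, both times through Traf2, and ranged from 1 to 2 with an array left out, the 2 being reached without CRL replicate 2, when Rela passed. Without a filter on dim probes the counts in IF1-TG against IF1-KO and in IF1-KO against CRL went from 0 to 1, through the Nfkb1 probe that was below background. Pathway genes past both thresholds in IF1-TG against IF1-KO numbered 2, but 5 with slide as a fixed block, 1 with slide as a random block, 1 with the other genotype left out of the fit and 0 to 4 with an array left out (0 when IF1-TG replicate 1 or either of the IF1-KO replicates 2 and 3 was dropped, 1 when CRL replicate 3 was, and 4 when IF1-TG replicate 3 or the array labelled IF1-KO replicate 1 was). In IF1-TG against CRL they numbered 3, but 1 with normexp and quantile normalization together (2 with quantile normalization alone), 6 with slide as a fixed block and 0 to 5 with an array left out (0 without CRL replicate 3, 1 without IF1-TG replicate 1, 5 without IF1-TG replicate 3). Map3k8 in IF1-TG against IF1-KO turned to 0.052 with slide as a fixed block. With slide as a fixed block, where the IF1-TG values rest on replicate 3 alone, the pathway genes called shared 0 with those called without a block under the settings of the report (they were Birc3, Map3k14, Tank, Tlr4 and Traf5 against IF1-KO), and over all probes 5.14% passed against IF1-KO and 7.92% against CRL. The cause of these changes was not tested.

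Arrays with the same replicate number did not deviate together, with correlations of -0.15 to 0.15, so the numbers are not taken to pair the animals. With the replicate number as a block, Traf2 differed by 0.72 between IF1-TG and CRL, 1 member probe was called there, and the pathway genes called numbered 2 in each IF1-TG comparison.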
